A study of Mus musculus with 6 samples.

Results

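The genes described here are components of T cell receptor signalling, chosen as a list of 32 gene symbols that runs from the receptor chains to the enzymes and brakes behind them. Of these, 31 had a probe set annotated to that symbol alone, among 18193 genes with such a probe set on the array, and Lck was not analysed here. Each gene is represented by its brightest probe set, by mean signal over the 6 arrays. All 31 passed the filter on dim probe sets, which kept 10838 genes for testing.

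RNA was hybridised to Affymetrix mouse 430 2.0 arrays, 1 array for each of 6 groups of CD8+ T cells from mice of the strain labelled C57/BL6. In 3 groups the cells came from Nrdp1-/- mice and were untreated, or stimulated for 4 h or for 8 h by immobilized anti-CD3 at 5 µg/ml together with soluble anti-CD28 at 1 µg/ml. The other 3 groups were Nrdp1+/+ (wild-type) cells under the same conditions. The cells are described as naive and splenic, and the labels give neither the number of mice behind an array, nor the ages, nor the part of Nrdp1 that was deleted and in which cells. Nrdp1 is a ubiquitin ligase encoded by Rnf41, and the study asked what its loss changes in the transcripts of resting and activated CD8+ T cells.

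The T cell receptor has no enzymatic activity of its own. Its peptide-binding chains sit in the membrane with the CD3 chains and the zeta chain, whose tyrosine motifs are phosphorylated by Lck once the CD8 coreceptor brings that kinase to the complex. Zap70 then docks there and phosphorylates the scaffold proteins LAT and SLP-76, from which phospholipase C-gamma, Vav and the Ras and NF-kB pathways are set off, while phosphatases, diacylglycerol kinases and adaptors that recruit ubiquitin ligases turn the signal down.

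The labelled cell type was checked first. Cd8a and Cd8b1, the chains of the CD8 coreceptor, lay between the 98.4th and 99.4th percentile of all probe sets on every array, and the CD3 and zeta chains between the 92.4th and 99.6th, whereas Cd4 lay at or below the 22.3rd. Of the 5 listed markers of CD4+ T cells, Cd4, Foxp3 and Cd40lg were below the array median on all 6 arrays. Zbtb7b was at or above it on 4 arrays, and Icos on 6, with signals from 2699 to 4904. The RNA extraction text in the labels speaks of colon tissue. Of 12 colon epithelial and smooth muscle genes, 7 were below the array median on all 6 arrays. Epcam and Lgals4 were at or above it on all 6, Car1 on 3, Des on 2 and Krt8 on 1. The signals of Epcam were 173 to 241 in Nrdp1-/- and 341 to 529 in wild-type cells, and those of Lgals4 328 to 419 and 271 to 444. Between genotypes Epcam was called lower (-1.06, limma, adjusted p = 0.00141) and Car1 higher (2.27, adjusted p = 0.00304) in Nrdp1-/- cells. The summed signal of the 12 genes was 828 to 1130.4 in Nrdp1-/- cells and 899.9 to 1289 in wild-type cells. Rnf41 had signals of 528, 437 and 477 in Nrdp1-/- cells (untreated, 4 h, 8 h) and 728, 505 and 639 in wild-type cells by its brightest probe set. That difference, -0.36 on the log2 scale, was not called (adjusted p = 0.128 by limma). A dimmer Rnf41 probe set read 54.5, 70.9 and 83.7 in Nrdp1-/- cells and 181, 166 and 161 in wild-type cells. Another read 201, 180 and 162 in Nrdp1-/- cells and 224, 130 and 203 in wild-type cells, a mean log2 difference of -0.002. The dimmest was below the array median on all 6 arrays and had a mean difference of 0.25. How each probe set is placed relative to the deletion is unknown here, so none checks the labels.

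The promoters of the 3 CD3 genes are shown first, as those of the receptor's own chains, and with them those of Ptpn6 and Sla2, the members with the largest rise and the largest fall. The sequences are the RefSeq windows of build GRCm38.p6, from 250 bases before to 50 bases after the start of the gene, read 5′ to 3′ on the gene's strand. Capitals mark matches, on either strand, to the 8 motifs searched.
Cd3g promoter, chr9:44980382-44980681, minus strand: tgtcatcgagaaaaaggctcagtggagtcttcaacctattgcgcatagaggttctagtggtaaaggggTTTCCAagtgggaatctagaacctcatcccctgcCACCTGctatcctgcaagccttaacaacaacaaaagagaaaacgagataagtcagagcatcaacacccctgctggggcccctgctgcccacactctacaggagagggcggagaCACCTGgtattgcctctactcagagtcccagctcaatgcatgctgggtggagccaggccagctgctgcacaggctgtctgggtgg
Cd3d promoter, chr9:44981536-44981835, plus strand: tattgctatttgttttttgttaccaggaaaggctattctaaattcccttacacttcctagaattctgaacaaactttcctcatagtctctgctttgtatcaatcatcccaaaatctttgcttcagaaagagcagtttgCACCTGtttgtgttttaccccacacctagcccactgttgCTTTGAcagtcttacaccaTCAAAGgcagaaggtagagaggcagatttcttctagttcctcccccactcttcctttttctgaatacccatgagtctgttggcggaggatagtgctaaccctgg
Cd3e promoter, chr9:45009562-45009861, minus strand: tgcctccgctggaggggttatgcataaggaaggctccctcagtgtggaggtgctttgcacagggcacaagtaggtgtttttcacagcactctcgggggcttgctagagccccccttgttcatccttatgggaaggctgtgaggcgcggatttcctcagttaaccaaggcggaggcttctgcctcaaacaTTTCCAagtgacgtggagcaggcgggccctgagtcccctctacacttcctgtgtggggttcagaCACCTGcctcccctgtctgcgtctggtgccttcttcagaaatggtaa
Ptpn6 promoter, chr6:124738660-124738959, minus strand: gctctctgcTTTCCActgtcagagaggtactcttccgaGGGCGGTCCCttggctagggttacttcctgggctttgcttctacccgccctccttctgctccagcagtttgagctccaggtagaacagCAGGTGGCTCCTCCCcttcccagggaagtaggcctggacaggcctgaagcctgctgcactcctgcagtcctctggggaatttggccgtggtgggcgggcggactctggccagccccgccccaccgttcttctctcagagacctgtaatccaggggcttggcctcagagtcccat
Sla2 promoter, chr2:156887172-156887471, minus strand: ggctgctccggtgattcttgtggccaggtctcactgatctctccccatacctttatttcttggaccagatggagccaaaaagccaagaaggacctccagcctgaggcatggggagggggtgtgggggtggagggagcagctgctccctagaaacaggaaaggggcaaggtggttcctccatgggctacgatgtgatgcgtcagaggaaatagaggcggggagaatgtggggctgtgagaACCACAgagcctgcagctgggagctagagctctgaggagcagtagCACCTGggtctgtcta
Cd3g and Cd3d are transcribed away from each other on chromosome 9, and their starts lie 1355 bases apart. The motif CACCTG, an E-box, stood in all 3 CD3 promoters, at positions -148 and -35 of Cd3g, -112 of Cd3d and 3 of Cd3e, counted from 0 at the start of the gene. In the Ptpn6 promoter the capitals mark an NFAT-type match (TGGAAA) at -241, kB-type matches (GGGA, any 4 bases, then CC) at -212 and -119, and an E-box at -124 that shares a base with the second of them. Sla2 held a Runx-type match (TGTGGT) at -11 and an E-box at 34.

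Promoters were given for 25 of the 32 listed members, Lck among them, in 35 windows. An E-box was present in 37.1% of these windows and in 20.2% of all 32851 promoter windows. The shares were 17.1% against 20.7% for the kB motif, 17.1% against 21.4% for the NFAT motif, 14.3% against 16.8% for the Runx motif, and 2.9% against 8.9% for the Ets motif (CCGGAAG). The TCF/LEF motif (CTTTGA) was in 7 of the 35 windows and in 5257 of all. The AP-1 motif (TGANTCA) was in 0.0% of the members' windows and 7.8% of all, and the Egr motif (GCGGGGGCG) in 2.9% of both. The E-box thus had the widest gap between the members and all promoters among these 8 motifs, as a description of the windows and not of binding.

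At 4 h of stimulation 8 of 31 receptor signalling transcripts were called. Ptpn6, Cd6 and Sla rose and Sla2, Themis, Txk, Plcg1 and Dgka fell, so that 3 of 31 members were called higher and 5 lower (limma, adjusted p under 0.05). Over all 10838 tested genes 8.01% were called higher and 5.51% lower. The members' median log2 change was -0.13, against -0.05 over all tested genes, and the median size of change irrespective of sign was 0.24, against 0.22 over all tested genes. Of the 31 members, 23 changed in the same direction in both genotypes, a count not taken over all tested genes. In bulk RNA, fewer cells of a type and less RNA per cell cannot be told apart, here or in the comparisons that follow. Values are MAS5 signals, and changes are log2 differences with their standard error from limma over 6 arrays.

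**Figure D1:**
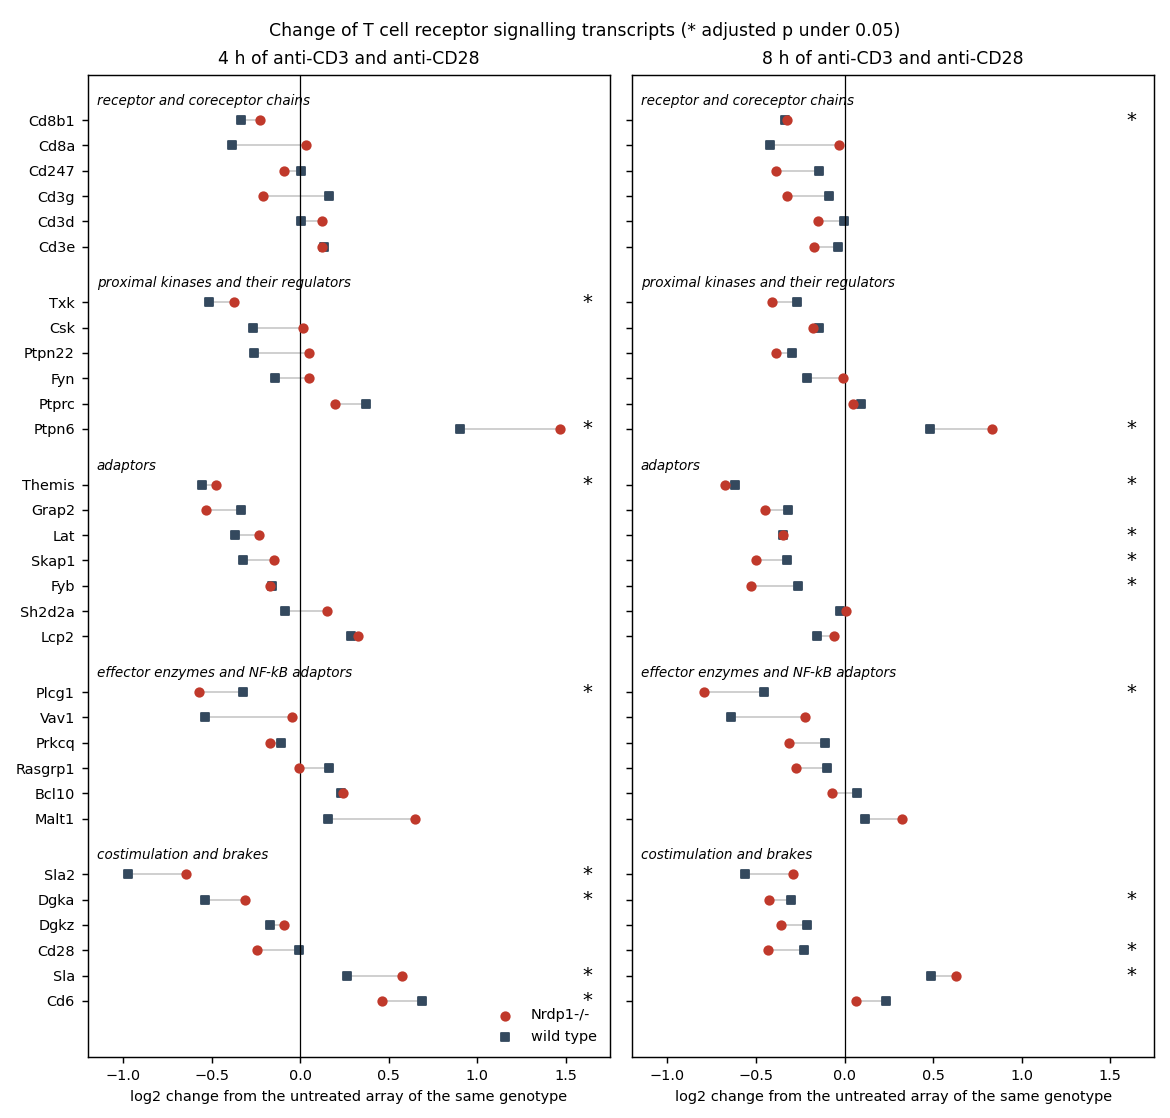
Log2 change of each of the 31 members at 4 h (left) and 8 h (right) from the untreated array of the same genotype, with Nrdp1-/- as red circles and wild type as dark squares, grouped by role. Ptpn6 lies farthest to the right at 4 h (1.47 and 0.90), Sla2 farthest to the left (-0.65 and -0.97), and the CD3 chains lie between -0.33 and 0.16 at both times.

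The counts at 4 h depended on how the spread was modelled. Without the intensity trend 0 members were called in either direction, with 4 higher and 7 lower at an unadjusted p under 0.05. Counts at an unadjusted p were taken for the members alone, here and below. Centring each array on its median gave 3 higher and 2 lower members, and quantile normalization 3 and 7. Leaving out the untreated Nrdp1-/- array left 2 higher members and 1 lower, Sla2, while leaving out either 8 h array gave 6 and 7. Whether calls over all tested genes moved alike with an array left out is not shown.

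At 8 h the list had shifted downwards. Themis, Plcg1, Skap1, Fyb, Dgka, Lat, Cd28 and Cd8b1 fell, and Ptpn6 and Sla rose, which made 2 of 31 members higher and 8 lower (limma). The shares over all tested genes were 9.88% higher and 9.26% lower. The median change of the members was -0.23, against -0.07 over all tested genes, and 25 of 31 changes were negative. In both genotypes the direction was the same for 29 of 31 members, 24 of them downwards. Counts of direction were taken for the members alone, so how usual they are among all tested genes is not shown. The comparisons at 4 h and 8 h share the untreated arrays.

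Again 0 members were called without the trend, with 2 higher and 9 lower at an unadjusted p under 0.05. The unadjusted counts have no share over all tested genes beside them. Leaving out the untreated Nrdp1-/- array left 0 higher and 2 lower members, and without the untreated wild-type array, or without the 8 h Nrdp1-/- array, 2 were lower. Without either 4 h array 13 or 14 members were lower. These counts with an array left out are of members alone, so whether calls over all tested genes moved alike is not shown. Of 15 tested myeloid markers 1 fell at 4 h and 6 fell at 8 h, where their median was -0.97, and of 10 tested B cell markers 0 and 1 fell. The summed signal of the 16 myeloid markers on the array was 16028, 10817 and 5023 in Nrdp1-/- cells (untreated, 4 h, 8 h). In wild-type cells it was 4440, 3814 and 3883. Whether myeloid or B cells had a part in the members' changes was not tested.

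**Figure D2:**
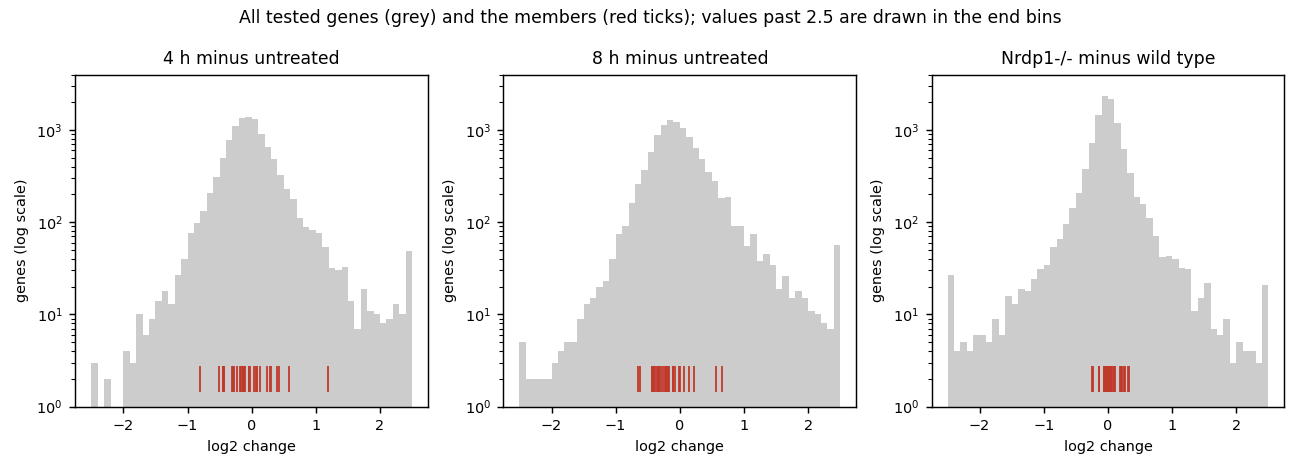
Histograms of the log2 change of all 10838 tested genes (grey, log count axis) for 4 h minus untreated, 8 h minus untreated and Nrdp1-/- minus wild type, with the 31 members as red ticks. The members stay between -0.81 and 1.18 at 4 h, between -0.65 and 0.66 at 8 h, and between -0.24 and 0.34 in the genotype comparison.

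By the brightest probe sets the receptor chains were the steadiest of the role groups at 4 h, with a median size of change of 0.10. Cd3e, which encodes the epsilon chain, had signals of 3007, 3275 and 2669.7 in Nrdp1-/- cells (untreated, 4 h, 8 h) and 2449.6, 2688 and 2384 in wild-type cells. Cd3d, the delta chain, gave 21540 (untreated), 23501 (4 h) and 19397 (8 h) in Nrdp1-/- cells and 23673, 23702 and 23621 in wild-type cells. The neighbouring Cd3g, for the gamma chain, read 9721, 8409 and 7762 in Nrdp1-/- cells, each below the wild-type array of its time at 9911, 11105 and 9331. Neither these 3 genes nor Cd247, which encodes the zeta chain with its several tyrosine motifs, passed the threshold at 4 h or 8 h.

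Cd247 showed 7187, 6757 and 5495 in Nrdp1-/- cells and 6557, 6585 and 5922 in wild-type cells, with a change of -0.27 ± 0.10 at 8 h (limma, adjusted p = 0.0882). Its dimmer probe sets changed by -0.19, -0.46 and 0.29 at 4 h, and all 4 of its probe sets were negative at 8 h. Cd8b1, the CD8 beta chain, was the 1 called gene of this group. It read 16358, 13979 and 13076 in Nrdp1-/- cells and 17383, 13773 and 13780.3 in wild-type cells, so that the stimulated arrays of both genotypes were below both untreated arrays. Its change was -0.28 ± 0.09 at 4 h (adjusted p = 0.0682) and -0.33 ± 0.09 at 8 h (limma, adjusted p = 0.0294). That call was lost on leaving out any 1 of the untreated or 8 h arrays, after median centring and without the filter. Cd8a, the alpha chain, read 10033, 10256 and 9822 in Nrdp1-/- cells and 11335, 8695 and 8452 in wild-type cells. Its change at 4 h was 0.03 in Nrdp1-/- and -0.38 in wild-type cells, and the interaction term was not called (limma, adjusted p = 1.00). Among its 4 other probe sets that order held in 2, and in the remaining 2 the Nrdp1-/- cells changed more negatively, by -0.57 and -0.70 against -0.17 and -0.41 in wild-type cells.

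**Figure D3:**
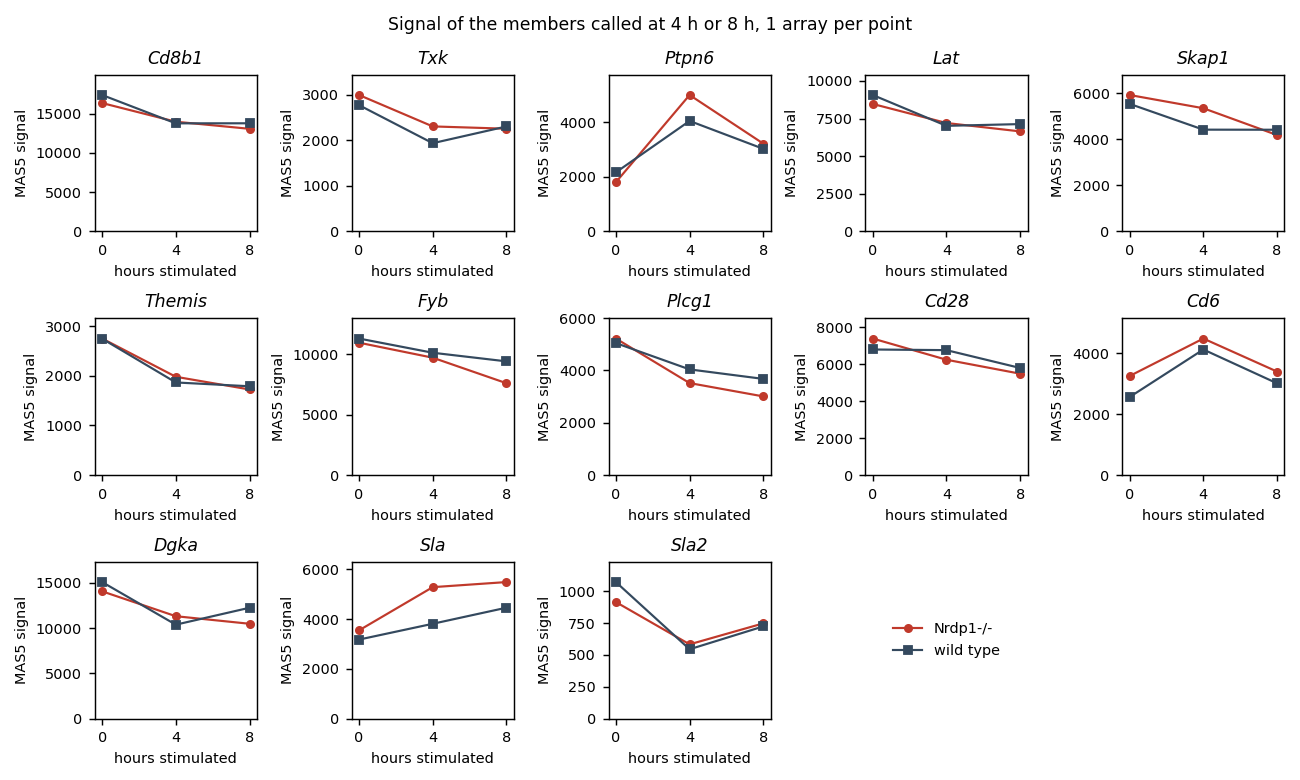
MAS5 signal against hours of stimulation for the 13 members called at 4 h or 8 h, 1 array per point, with Nrdp1-/- in red and wild type in dark grey and each axis starting at 0. Ptpn6, Cd6 and Sla2 turn back between 4 h and 8 h in both genotypes, while Themis and Plcg1 go on downwards.

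Among the kinases and phosphatases close to the receptor, Ptpn6 stood out. It encodes SHP-1, a tyrosine phosphatase that dampens antigen receptor signals. Its signal was 1807, 5002 and 3220.2 in Nrdp1-/- cells (untreated, 4 h, 8 h) and 2168, 4051 and 3029.5 in wild-type cells. Every stimulated array was above both untreated arrays. The rise was 1.18 ± 0.13 at 4 h, or 2.27-fold (limma, adjusted p = 0.000164), and 0.66 ± 0.13 at 8 h, or 1.58-fold (adjusted p = 0.00602). From 4 h to 8 h the change was -0.53 ± 0.13 and was not called (limma, adjusted p = 0.230), although Ptpn6 was called lower there when either untreated array or the 4 h wild-type array was left out. The call at 8 h was lost without the untreated Nrdp1-/- array. A second, dimmer probe set of Ptpn6 had mean changes of only 0.20 at 4 h and 0.20 at 8 h.

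Txk, a Tec family kinase of T cells, fell at 4 h. It gave 2994, 2305 and 2255 in Nrdp1-/- cells and 2772, 1937 and 2304 in wild-type cells, a change of -0.45 ± 0.11 at 4 h (limma, adjusted p = 0.0215) and of -0.34 ± 0.11 at 8 h (adjusted p = 0.0543). Its stimulated arrays all lay below its untreated ones. The call at 4 h was lost after median centring and on leaving out the untreated or the 4 h wild-type array or the untreated Nrdp1-/- array.

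The other 4 members of this group were not called at either time. Ptprc, which encodes the CD45 phosphatase that activates Lck, read 31895, 36526 and 32945 in Nrdp1-/- cells and 29413, 38036 and 31426 in wild-type cells, highest at 4 h in both. Its change at 4 h was 0.28 ± 0.09 (limma, adjusted p = 0.0703). Csk, the kinase that holds Src family kinases inactive, had changes of -0.13 and -0.16 at 4 h and 8 h. Ptpn22, a phosphatase that works with Csk, was lower at 8 h than untreated in both genotypes, with -0.39 in Nrdp1-/- and -0.30 in wild-type cells, and was not called (limma, adjusted p = 0.0538). Fyn, the second Src family kinase of T cells, stayed between 3246 and 3377 on all Nrdp1-/- arrays and between 2697 and 3119.99 on wild-type arrays.

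Adaptor transcripts were mostly lower at 8 h, with 4 of 7 fallen, 0 risen and a median change of -0.38. Over all tested genes 9.26% were called lower and 9.88% higher at 8 h, with a median of -0.07. Themis, an adaptor that thymocytes need for selection and that binds SHP-1, read 2752, 1981 and 1725 in Nrdp1-/- cells and 2749, 1867 and 1789.6 in wild-type cells. The genotypes nearly coincided at each time, and the stimulated arrays were all well below the untreated ones. Its change was -0.52 ± 0.11 at 4 h (limma, adjusted p = 0.00847) and -0.65 ± 0.11 at 8 h (adjusted p = 0.00198). Its call at 4 h was lost without either untreated array, and the average of its probe sets ended it at both times. Of its 3 other probe sets all had a negative change at 4 h, and 1 had a positive change at 8 h (0.33).

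Lat, the membrane scaffold that Zap70 phosphorylates, gave 8469.7, 7204 and 6647 in Nrdp1-/- cells and 9064, 7016 and 7132 in wild-type cells. The stimulated arrays of both genotypes were again below both untreated ones. It fell by 0.35 on the log2 scale at 8 h (-0.35 ± 0.10, limma, adjusted p = 0.0273). Skap1 and Fyb encode 2 adaptors, SKAP55 and ADAP, that bind each other and link the receptor to integrins. Skap1 read 5928, 5353 and 4189 in Nrdp1-/- cells and 5542, 4423 and 4419 in wild-type cells, with -0.41 ± 0.11 at 8 h (limma, adjusted p = 0.0225). Fyb read 10948, 9708 and 7597 in Nrdp1-/- cells and 11292, 10117 and 9404 in wild-type cells, with -0.40 ± 0.10 at 8 h (limma, adjusted p = 0.0204).

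The calls of Lat, Skap1 and Fyb at 8 h were each lost without either untreated array and without the 8 h Nrdp1-/- array. That of Lat was also lost after median centring and without the filter. Skap1 and Fyb were lower at 8 h in both genotypes, and the dimmer probe sets of Skap1 had larger changes, down to -1.43. The remaining 3 adaptors were not called. Lcp2, which encodes SLP-76, was highest at 4 h, at 4499, 5651 and 4325 in Nrdp1-/- cells and 4043, 4924 and 3633 in wild-type cells. Grap2, which encodes Gads, the bridge between LAT and SLP-76, changed by -0.43 ± 0.14 at 4 h (limma, adjusted p = 0.0721), and Sh2d2a, an adaptor that binds Lck, by 0.03 ± 0.12.

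Among the effector enzymes 1 member of 6 was called at each time, as lower. Over all tested genes 5.51% were called lower at 4 h and 9.26% at 8 h. Plcg1, which encodes phospholipase C-gamma1, the source of the calcium and diacylglycerol signals, read 5223, 3518 and 3008 in Nrdp1-/- cells and 5048, 4042 and 3678 in wild-type cells. Both genotypes descended at each step. The change was -0.44 ± 0.11 at 4 h (limma, adjusted p = 0.0216) and -0.63 ± 0.11 at 8 h, a 0.648-fold level (adjusted p = 0.00291). Both other Plcg1 probe sets were below the array median on at least 5 of 6 arrays, and the average over the 3 changed the value at 4 h to 0.079 and ended the call at 8 h. Median centring ended the call at 4 h. The untreated Nrdp1-/- array, when left out, ended the calls at both times, and the 4 h Nrdp1-/- array that at 4 h.

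Vav1, an exchange factor for Rac, was lower with stimulation, at 1319, 1275 and 1128 in Nrdp1-/- cells and 1517, 1045 and 971 in wild-type cells. Its change at 8 h was -0.43 ± 0.14 and missed the threshold narrowly (limma, adjusted p = 0.0502), and its dimmer probe set had the opposite sign (0.19). Prkcq, the protein kinase C of the T cell synapse, and Rasgrp1, which loads Ras, had changes of -0.21 and -0.19 at 8 h. The probe sets of Rasgrp1 ranged from -0.19 to 0.52 at 8 h.

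Bcl10 and Malt1 bind each other and lead from the receptor to NF-kB. Malt1 gave 1652, 2592 and 2073 in Nrdp1-/- cells and 1620.01, 1803 and 1753 in wild-type cells, and all stimulated arrays were above both untreated ones. Its change at 4 h, 0.40 ± 0.13, was not called (limma, adjusted p = 0.0640). Its 3 probe sets all had positive changes at 4 h, between 0.37 and 0.54. Bcl10 changed by 0.23 ± 0.10 at 4 h (adjusted p = 0.153, limma), also with the same sign in all of its 4 probe sets.

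The costimulatory receptor and the brakes held calls in both directions. Sla and Sla2 encode the related adaptors SLAP and SLAP-2, which recruit the ubiquitin ligase Cbl and lower receptor levels. Sla rose, with 3548, 5286 and 5491 in Nrdp1-/- cells and 3177, 3812 and 4459 in wild-type cells, by 0.42 ± 0.11 at 4 h (limma, adjusted p = 0.0253) and 0.56 ± 0.11 at 8 h (adjusted p = 0.00477). Sla2 went the other way, with 915, 583 and 748 in Nrdp1-/- cells and 1072, 544 and 724 in wild-type cells. It fell by 0.81 at 4 h (-0.81 ± 0.14, limma, adjusted p = 0.00288), to a 0.571-fold level, and was at -0.43 ± 0.14 at 8 h (adjusted p = 0.0504). The stimulated arrays lay above both untreated ones for Sla and below both for Sla2.

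Both probe sets of Sla2 changed alike at 4 h, at -0.81 and -0.62. For Sla the 4 probe sets ranged from -0.12 to 0.70 at 4 h, and with their average the call was lost at both times. Leaving out the untreated Nrdp1-/- array also ended the call of Sla at both times, and leaving out the 4 h Nrdp1-/- array ended it at 4 h.

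Cd6, a scavenger receptor family protein that binds CD166 and tunes T cell signals, rose at 4 h. It read 3247, 4475 and 3392 in Nrdp1-/- cells and 2558, 4115 and 3007 in wild-type cells, a change of 0.57 ± 0.10 at 4 h (limma, adjusted p = 0.00422) and 0.15 ± 0.10 at 8 h (adjusted p = 0.363). The 4 h arrays were the highest of either genotype. Leaving out the untreated wild-type array ended the call at 4 h.

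Dgka and Dgkz encode the diacylglycerol kinases that remove the activator of Rasgrp1 and protein kinase C. Dgka fell, with 14062, 11312 and 10477 in Nrdp1-/- cells and 15086, 10378 and 12247 in wild-type cells, with changes of -0.43 ± 0.11 at 4 h (limma, adjusted p = 0.0214) and -0.36 ± 0.11 at 8 h (adjusted p = 0.0345). Dgkz did not pass the threshold, with -0.13 ± 0.10 at 4 h and -0.29 ± 0.10 at 8 h (limma, adjusted p = 0.0615 at 8 h). The call of Dgka at 4 h was lost after median centring, without the filter, and on leaving out the untreated or 4 h wild-type array or the untreated Nrdp1-/- array, and that at 8 h after median centring, without the filter, with probe sets averaged for every gene (Dgka itself has 1), and without either untreated array or the 8 h Nrdp1-/- array.

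Cd28, the costimulatory receptor engaged by the soluble antibody, read 7389, 6241 and 5485 in Nrdp1-/- cells and 6796, 6761 and 5795 in wild-type cells. The 8 h arrays were the lowest of each genotype, and the change at 8 h was -0.33 ± 0.10 (limma, adjusted p = 0.0423). That call was lost in 8 of 14 alternatives, the most of any called member, among them the average of its 2 probe sets.

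**Figure D4:**
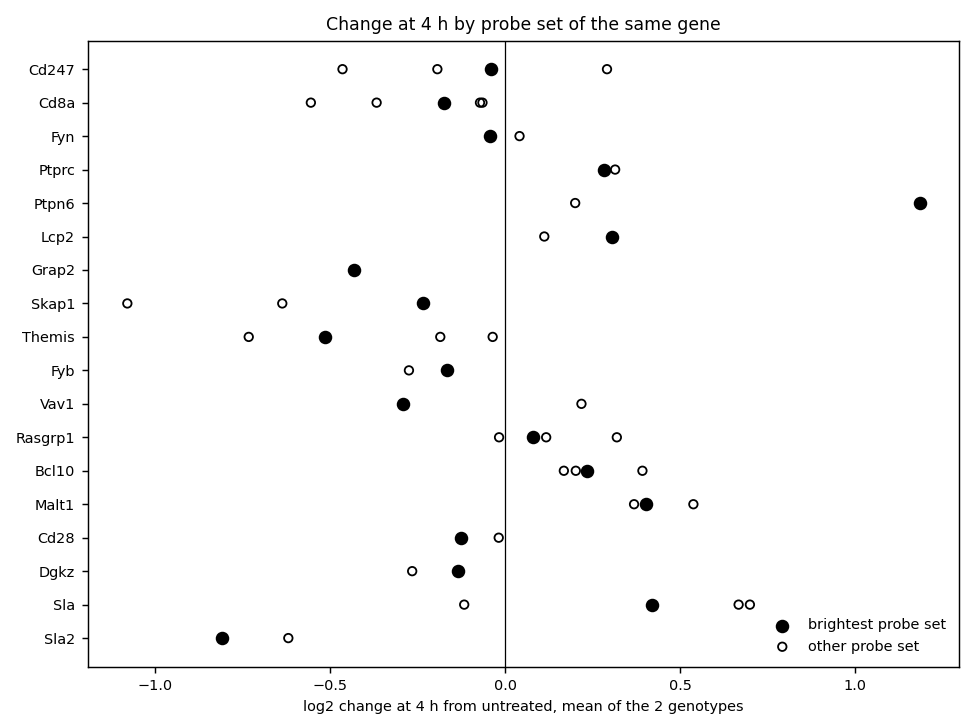
Log2 change at 4 h from untreated, averaged over the 2 genotypes, for each probe set at or above the array median on at least 2 arrays, for the 18 members with several such probe sets. Filled circles are the brightest probe sets and open circles the others, with the 2 of Grap2 coinciding at -0.43. Ptpn6 has the widest gap between its 2 probe sets, at 1.18 and 0.20, and the Vav1 pair lies on either side of 0.

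Between 4 h and 8 h of stimulation 0 of 31 members were called (limma), with 1 higher and 9 lower at an unadjusted p under 0.05. At the adjusted threshold only 0.0185% of all tested genes were called higher and 0.0277% lower in that comparison, so it made few calls anywhere. The unadjusted counts are of members alone, with no share over all tested genes beside them. The median change of the members was -0.15, against -0.01 over all tested genes. The largest changes were those of Ptpn6 (-0.53), Cd6 (-0.43 ± 0.10, adjusted p = 0.226) and Lcp2 (-0.41 ± 0.10, limma, adjusted p = 0.193), which were highest at 4 h in both genotypes, and of Sla2 (0.38), which was lowest at 4 h in both.

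Loss of Nrdp1 was not accompanied by a called difference in any member. The differences between Nrdp1-/- and wild-type cells over the 3 times ran from -0.24 to 0.34, with a median of 0.02. Of 31 members 0 were called (limma), with 7 higher and 2 lower at an unadjusted p under 0.05 and 3 and 0 without the intensity trend. Over all tested genes 2.47% were called higher and 2.57% lower, at the adjusted threshold. The counts at an unadjusted p were taken for the members alone, without a share over all tested genes. Among the members' separate 95% intervals the lowest bound was -0.43 (Cd3g) and the highest 0.54 (Sh2d2a). For each member, differences within its own interval are not excluded, such as -0.18 to 0.18 for Bcl10.

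The members farthest from 0 were an adaptor and a brake. Sh2d2a read 1582, 1757 and 1592 in Nrdp1-/- cells and 1334, 1258 and 1309 in wild-type cells, and the groups did not overlap. The difference was 0.34 ± 0.09 with a 95% interval from 0.13 to 0.54 (limma, adjusted p = 0.0770). Sla followed with 0.31 ± 0.09 (limma, adjusted p = 0.0769), and its genotype groups overlapped. At the other end Rasgrp1 gave 7102, 7079 and 5864 in Nrdp1-/- cells and 7763, 8706 and 7251 in wild-type cells, which did not overlap, with -0.24 ± 0.08 (limma, adjusted p = 0.130). Its 3 other probe sets had differences of 0.07, 0.22 and -0.57.

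Within the CD3 cluster the genes differed in sign. Cd3e was higher in Nrdp1-/- cells at each time, by 0.30, 0.28 and 0.16, and Cd3g lower, by -0.03, -0.40 and -0.27, and neither was called (limma, adjusted p = 0.144 and 0.200). In all, 8 members were above the wild-type array of the same time at all 3 times, which 17.4% of all tested genes were, and 4 were below at all 3 times, against 20.2%. The 3 Nrdp1-/- arrays lay above all 3 wild-type arrays for Fyn and Sh2d2a and below them for Cd3d and Rasgrp1, and 5.73% and 6.96% of all tested genes did so. By a dimmer probe set of Fyn the genotypes overlapped, with a mean difference of 0.06.

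**Figure D5:**
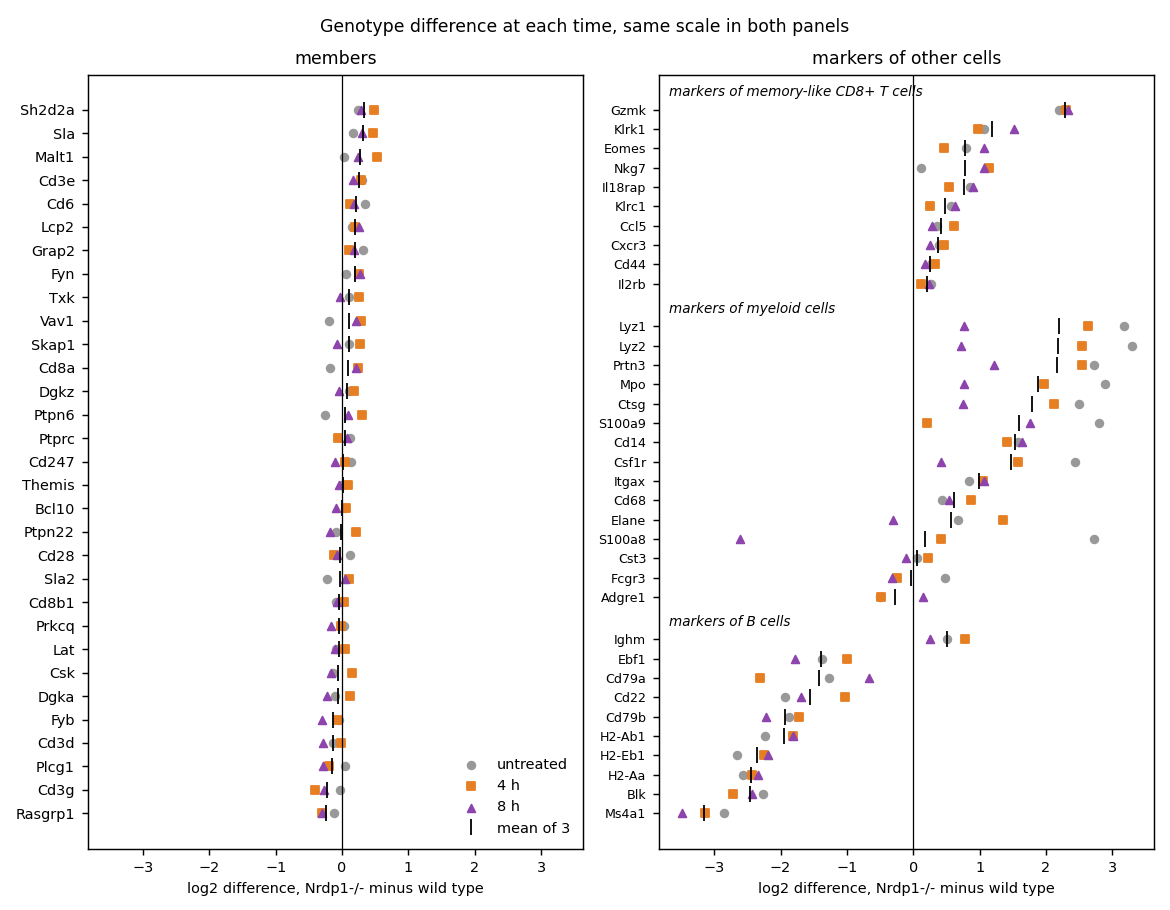
Log2 difference, Nrdp1-/- minus wild type, at each time (grey circle untreated, orange square 4 h, purple triangle 8 h) with the mean of the 3 as a bar, for the 31 members (left) and for marker genes of B cells, myeloid cells and memory-like CD8+ T cells (right) on the same scale. The members stay between -0.40 and 0.52 at every single time, while the tested B cell markers other than Ighm have means below 0 and most myeloid markers above it.

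Markers of other cells differed between the genotypes far more than the members did. Of 10 tested B cell markers 8 were lower in Nrdp1-/- cells and Ighm was higher, with a median of -1.94, and Ms4a1 read 403, 262 and 255 in Nrdp1-/- cells against 2930.5, 2346 and 2914 in wild-type cells. The summed signal of the 13 B cell markers on the array was 25031 to 34581 in Nrdp1-/- and 32031 to 36215 in wild-type cells, with Ighm making up most of it, and Cr2 and Fcer2a were below the array median on all arrays. Of 15 tested myeloid markers 7 were higher, with a median of 1.48 and summed signals of 5023 to 16028 in Nrdp1-/- and 3814 to 4440.3 in wild-type cells, and Itgam was below the array median throughout. The memory-like CD8+ T cell list had 8 of 10 genes higher, with a median of 0.62 and summed signals of 38790.5 to 40819 in Nrdp1-/- and 26036 to 28440.3 in wild-type cells. The part of these cells in the members' genotype differences was not tested.

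An interaction term asked whether the genotype difference of stimulated cells departs from that of untreated ones, which rests on 1 residual degree of freedom. In that test 0.0923% of all tested genes were called higher and 0.129% lower (limma), and 0 genes with the spread of the additive model. Of 31 members 0 were called with either spread, and 1 had an unadjusted p under 0.05 in the first, a count taken for the members alone. The 1 member was Ptpn6, whose rise at 4 h was 1.47 in Nrdp1-/- and 0.90 in wild-type cells and at 8 h 0.83 and 0.48. Its interaction value was 0.46 (limma, adjusted p = 1.00). A second Ptpn6 probe set had the opposite order, with 0.04 in Nrdp1-/- and 0.36 in wild-type cells at 4 h and 0.16 and 0.23 at 8 h. For Malt1 the brightest probe set changed by 0.65 at 4 h in Nrdp1-/- and 0.15 in wild-type cells, while the other 2 gave 0.34 and 0.27 in Nrdp1-/- and 0.73 and 0.47 in wild-type cells.

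The rest of the pathway was examined in a list of other genes of T cell receptor signalling, of which 73 had a probe set and 72 were tested. At 4 h 5 of these rose and 15 fell, beside 8.01% called higher and 5.51% lower over all tested genes. At 8 h 3 rose and 20 fell, beside 9.88% and 9.26%. Over all tested genes the median was -0.05 at 4 h and -0.07 at 8 h, and that of this list -0.12 and -0.17. Largest at 4 h were Map3k8, a kinase upstream of Erk (0.94 ± 0.17), Rasgrp2, an exchange factor for Rap1 (-0.88 ± 0.12), the transmembrane adaptor Trat1 (0.68 ± 0.16), the transcription factor Nfatc2 (-0.65 ± 0.14), Zap70 (0.62 ± 0.12) and the inhibitory receptor Cd5 (0.61 ± 0.10). At 8 h Rasgrp2 (-0.70), Map3k8 (0.66), the kinase Tec (-0.62), Zap70 (0.62), the adaptor Nck2 (-0.62) and Ubash3a (-0.59) led. With the average of its probe sets the value of Zap70 was 0.25 at 4 h and 0.31 at 8 h and was no longer called, and leaving out the untreated or the 4 h wild-type array ended the call of Trat1, and leaving out the 4 h wild-type array that of Nfatc2. Averaged probe sets also ended the calls of Nck2 and Ubash3a at 8 h. The call of Nck2 was lost without the untreated Nrdp1-/- array too, that of Ubash3a without the untreated or the 8 h wild-type array, and that of Map3k8 at 8 h without either untreated array or the 8 h Nrdp1-/- array.

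Between genotypes 2 of these 72 genes were higher in Nrdp1-/- cells and 2 lower, beside the 2.47% higher and 2.57% lower over all tested genes. Dok2, an adaptor that restrains Ras and is also expressed in myeloid cells, gave 1633, 1349 and 1577 in Nrdp1-/- cells and 780.4, 819 and 786 in wild-type cells (0.93 ± 0.10, limma, adjusted p = 0.000307). Mapk8, which encodes the kinase JNK1, gave 632, 653 and 441 in Nrdp1-/- cells and 1131, 1115 and 1093 in wild-type cells (-0.97 ± 0.12, limma, adjusted p = 0.000769). Both genes had groups that did not overlap. Another Mapk8 probe set went the opposite way, at 276, 246 and 203 in Nrdp1-/- cells and 60.2, 23.9 and 13.1 in wild-type cells, and the average over all 5 was 0.24. Map3k8 was higher (0.62 ± 0.14, limma, adjusted p = 0.0244) and Tec lower (-0.39 ± 0.08, limma, adjusted p = 0.0202), and the call of Map3k8 was lost without either 8 h array and that of Tec without any 1 of the untreated or 8 h arrays.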

How the data were processed

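The deposited table gives a linear MAS5 intensity per probe set, in 1 column per array, and MAS5 is named in the submitters' processing notes. The values show that the authors had scaled each array to a trimmed mean of 500.003. Intensities were taken as log2(signal + 4.45), the pseudocount being the 10th percentile of all values, so fold changes of dim genes are understated. Of 45101 probe sets 64 were controls and left out. The platform annotation gave 1 symbol for 34945, several for 932 and no entry for 9160. Each gene took its brightest probe set with 1 symbol, and genes at or above the array median on at least 2 arrays were tested.

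The test was limma 3.58.1 in R 4.3.3 with time and genotype as additive terms, eBayes with an intensity trend, and Benjamini-Hochberg adjustment over all 10838 genes at 0.05 (2 residual and 8.99 prior degrees of freedom). Each group is 1 array, so p-values do not measure the spread between animals. The spread used is the arrays' departure from additive time and genotype effects, moderated over all genes. Such departures may be technical or a genotype difference that varies with time. In the interaction test the prior degrees of freedom were infinite. The number of arrays limits the precision. Fits were tested on simulated data. Full statistics were given for members past the threshold or changed by at least 0.5, and up to 6 other pathway genes per comparison. Other values, probe sets and array differences were named after they were seen. The members and lists were chosen with earlier results of these data known. Promoters were scanned with Python 3.11.15, with motifs chosen after the data were seen.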

Additional observations from a re-analysis of the deposited data

How the results depend on the processing

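Directions were more stable than calls. The value of Plcg1 at 4 h turned to 0.079 and that of Mapk8 between genotypes to 0.24 when probe sets of a gene were averaged, and no other value recomputed for a called gene, or for Ptpn6 from 4 h to 8 h, changed sign. Without the intensity trend 0 members were higher and 0 lower at 4 h and at 8 h. Median centring gave 2 lower members at 4 h (against 5) and 5 at 8 h (against 8), no filter gave 4 lower at 8 h, and the mean of probe sets gave 1 higher at 8 h (against 2). Leaving out 1 array gave 2 to 6 higher and 1 to 7 lower members at 4 h, 0 to 2 higher and 2 to 14 lower at 8 h, 0 higher and 0 to 1 lower from 4 h to 8 h, and 0 in either direction between genotypes. Those ranges count members alone. Over all tested genes, 868 were higher and 597 lower at 4 h, against 83 and 4 without the trend, 386 lower with median centring and 346 lower with averaged probe sets. At 8 h 1071 and 1004 became 103 and 5 without the trend, and 515 lower with averaged probe sets. Between genotypes 268 and 279 became 42 and 57 without the trend and 182 lower with averaged probe sets. In the genotype and interaction comparisons 0 members were called under every alternative run. No paired analysis was possible because each group is 1 array with no replicates to pair, although the additive model does set the genotypes against each other within each time. Pseudocounts of 1 and 24.3, quantile normalization and a filter at the 70th percentile kept each count of members within 1.5 times. The cause of these differences was not tested.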
